A study of Mus musculus with 5 samples.

Results

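Kinetochore and spindle checkpoint genes, 35 of the 22869 gene symbols in the count table, were examined by RNA sequencing of laser-captured intervillus cells of the newborn mouse jejunum. The members were chosen by name and by the known role of the protein, but with earlier results of these data known. All 35 were found, each was represented by its transcript row with the highest mean count, and all 35 passed the filter on low counts. The intervillus region is the dividing epithelium between the villi. The controls were littermates with the genotype Dnmt1 L/+, for which the labels name no Cre, sampled as 3 libraries numbered 1, 2 and 3. The mutants had the genotype Dnmt1 L/L; VillinCre, in which Cre is driven from the villin promoter of the gut epithelium, and were sampled as 2 libraries numbered 4 and 6. All were taken at postnatal day 0. Mutant areas were captured where Ki67 staining of a neighbouring section was negative and control areas where Ki67 was positive, so loss of Dnmt1 and the choice of non-dividing areas cannot be told apart, and a fall of a cell division gene is not independent of that choice.

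The kinetochore is the protein structure that joins a chromosome to the spindle. Its inner layer, the constitutive centromere-associated network (CCAN), sits on nucleosomes that carry the histone variant CENP-A. Its outer layer, the KMN network, binds microtubules and is where the spindle checkpoint delays the separation of chromatids until each chromosome is attached. Many of these genes are transcribed mainly in late S phase, G2 and mitosis, and the letters of the CCAAT box (bound by NF-Y) and of the cell cycle homology region (TTTGAA or TTTAAA, bound by the MuvB core of the DREAM complex) are common in promoters of such genes.

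The promoters below are shown because of these letters. First come the 4 members with the largest falls among the 8 that were called lower and hold both CCAAT and a hexamer. Then come the member with the smallest fold change (Cenpm), which holds CCAAT but neither hexamer, and the member that rose (Zwint, picked after its values were seen). The sequences are RefSeq promoters of the build GRCm38.p6, from 150 bases before the annotated start to 30 bases from it, 5′ to 3′ along the gene. Capitals mark the CCAAT box and both hexamers on either strand, and positions count the first base of the gene as 1. In Cdca8 a TTTGAA and an inverted CCAAT overlap in 1 run of capitals.
Cenpa (chr5:30666736-30666915, plus strand): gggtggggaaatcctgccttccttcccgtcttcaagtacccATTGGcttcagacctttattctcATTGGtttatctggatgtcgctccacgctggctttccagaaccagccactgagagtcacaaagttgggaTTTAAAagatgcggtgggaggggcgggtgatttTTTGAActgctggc
Cenpe (chr3:135212413-135212592, plus strand): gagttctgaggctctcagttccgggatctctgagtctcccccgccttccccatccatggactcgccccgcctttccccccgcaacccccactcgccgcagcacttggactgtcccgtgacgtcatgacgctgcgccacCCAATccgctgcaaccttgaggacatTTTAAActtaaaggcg
Cdca8 (chr4:124936888-124937067, minus strand): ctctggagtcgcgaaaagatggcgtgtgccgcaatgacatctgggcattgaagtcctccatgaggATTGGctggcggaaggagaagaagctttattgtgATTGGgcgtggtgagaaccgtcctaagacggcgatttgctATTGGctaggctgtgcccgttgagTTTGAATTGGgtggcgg
Spc25 (chr2:69206184-69206363, minus strand): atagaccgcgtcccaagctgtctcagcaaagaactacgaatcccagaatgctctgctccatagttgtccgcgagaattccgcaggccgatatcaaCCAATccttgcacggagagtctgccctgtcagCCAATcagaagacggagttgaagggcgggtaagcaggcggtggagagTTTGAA
Cenpm (chr15:82244307-82244486, minus strand): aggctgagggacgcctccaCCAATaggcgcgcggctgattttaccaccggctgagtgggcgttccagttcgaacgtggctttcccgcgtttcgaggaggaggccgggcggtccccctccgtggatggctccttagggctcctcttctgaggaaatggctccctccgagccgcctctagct
Zwint (chr10:72654696-72654875, plus strand): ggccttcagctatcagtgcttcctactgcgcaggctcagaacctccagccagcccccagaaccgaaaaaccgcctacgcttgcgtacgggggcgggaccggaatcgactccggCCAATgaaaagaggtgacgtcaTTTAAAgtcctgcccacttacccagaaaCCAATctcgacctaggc
Of the 35 members, 31 had an entry in the promoter table (all but Spc24, Nsl1, Aurkb and Incenp), and the first entry of each gene was searched over 300 bases, from 250 before the start to 50 from it. CCAAT stood in 20 of the 31 (64.5%), against 37.9% of all 27025 promoters. TTTGAA or TTTAAA stood in 18 (58.1%), against 27.8%, and both CCAAT and one of these hexamers in 13 (41.9%), against 10.9%. Within the 100 bases around the start, a window chosen after the positions were seen, 13 of the 31 held TTTGAA or TTTAAA, against 8.24% of all promoters. Of the 18 with TTTGAA or TTTAAA in 300 bases, 11 were called lower in the mutants, and of the 13 without, 4 were. The median log2 fold change was -0.67 with these hexamers and -0.60 without. For CCAAT, 10 of the 20 with it and 5 of the 11 without were called lower, with medians of -0.61 and -0.66. For the hexamers within 100 bases of the start, 7 of the 13 with them and 8 of the 18 without were called lower. These differences were not tested. Cenpa holds TTTAAA at -17 and TTTGAA at 17, and Cenpe holds CCAAT at -12 and TTTAAA at 15. Zwint, which rose, holds CCAAT at -37 and TTTAAA at -15, while Dsn1, which fell most, holds neither CCAAT nor these hexamers in its window. A match is a run of letters, and no binding was measured.

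The libraries held 8730268 to 13356901 reads, counted with 1 row per gene. Dnmt1, the targeted gene, was at 123, 128 and 95.1 CPM (counts scaled to library size) in controls 1, 2 and 3 and at 37.8 and 40.5 CPM in mutants 4 and 6 (log2 fold change -1.56 ± 0.16, SE). Mki67, which encodes Ki67, was at 927, 1022 and 773 CPM in the controls and 511 and 506 CPM in the mutants, so the Ki67-negative areas still held its transcript. The log2 fold change of Mki67 was -0.84 ± 0.15 (SE; edgeR adjusted p = 0.00284), and since the areas were chosen on this protein the value serves as a reference and not as a result. The groups also differed in sex-linked transcripts: Xist had 42 to 72 counts in the controls against 10179 and 8277 in mutants 4 and 6, and 4 Y-linked genes together had 2710 to 3160 counts in the controls, against 4 and 3, so genotype and sex of the libraries cannot be told apart. Epithelial markers (Epcam, Cdh1, Vil1, Cdx2, Krt8 and Krt18) summed to 2960.0 to 3206 CPM in the controls and 3097 and 3138 CPM in the mutants, although Cdx2 fell (log2 fold change -0.94) and Krt18 rose (0.79). The labels do not tie the libraries to separate mice, so the p-values reflect only the spread among these 5 libraries.

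Transcripts of most kinetochore and checkpoint genes were lower in the mutants. Summed over the 35 members, the level was 1269, 1399.6 and 1195 CPM in the controls and 830.3 and 849 CPM in the mutants, and the groups did not overlap. Of the 35 members, 17 fell, 1 (Zwint) rose and 17 did not pass the test at an edgeR adjusted p under 0.05. Of all 14572 genes tested, 4.17% were called lower and 6.11% higher. A negative log2 fold change was seen in 31 members and in 50.8% of all genes, and the member median was -0.61 where that of all genes was -0.01. In 26 members both mutants lay below all 3 controls (21.8% of all genes) and in 3 above them (21.7%). In bulk samples of this kind, fewer cells in mitosis and less RNA per cell cannot be told apart.

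Leaving out control 1, mutant 4 or mutant 6 lowered the number of falling members to 11, 6 or 10, where 1.75%, 1.11% or 1.37% of all genes were called lower. On the deposited FPKM (reads scaled to transcript length and library size) tested with limma, 0 members were called at log2(FPKM + 1), where 0.0638% of all genes were called lower, although 18 were lower and 1 higher at an unadjusted p under 0.05. DESeq2 on the counts called 17 lower and 1 higher (4.82% and 7.14% of all genes). Members that did not pass had fewer reads at the median, 979 over the 5 libraries, against 3555 in those that fell. The ranges overlapped widely, at 305 to 5519 and 645 to 7269 reads. The falls of Cenpa, Casc5, Cenpe, Dsn1 and Cdca8 passed without any 1 of the 5 libraries.

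**Figure D1:**
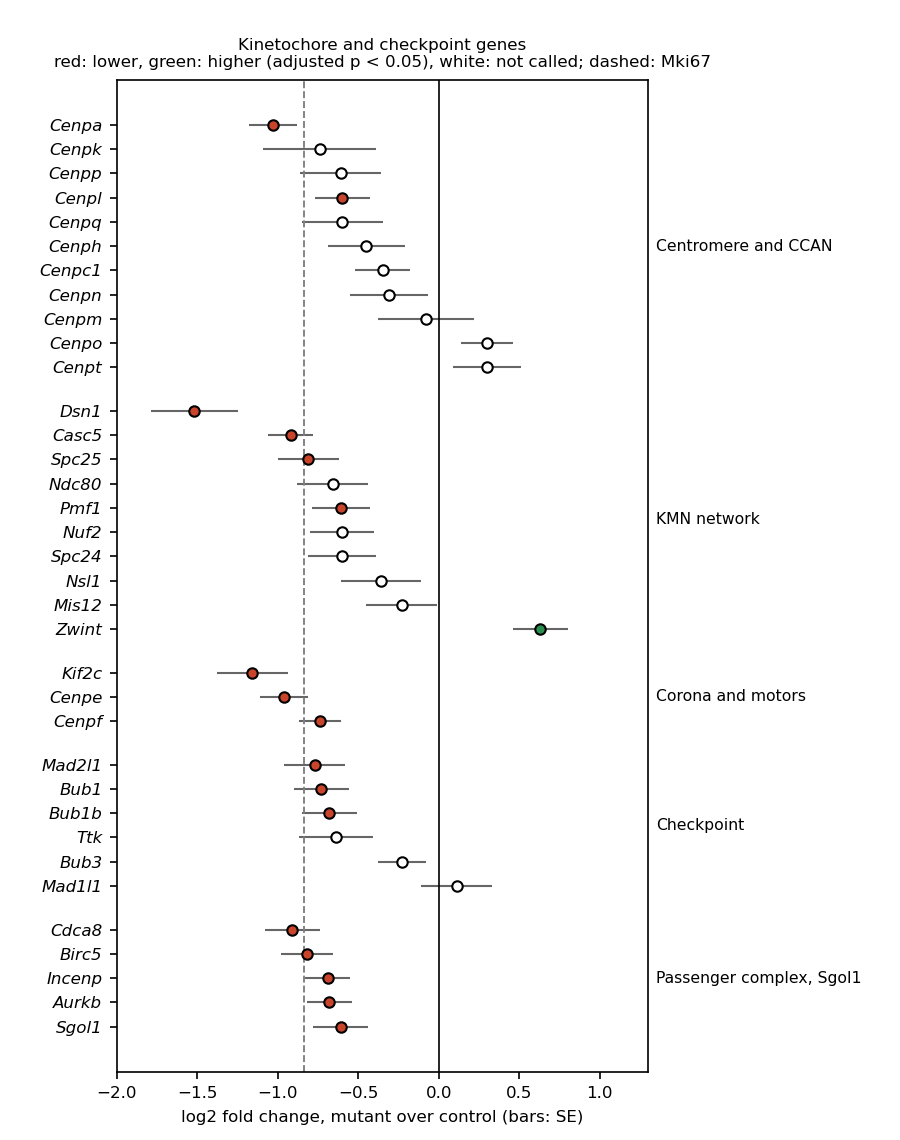
Log2 fold change of each of the 35 members (x axis, mutant over control, bars are SE), grouped by role; filled points passed the edgeR test and the dashed line is Mki67 at -0.84. All members of the corona and passenger groups lie left of 0 and are filled, Dsn1 lies furthest left at -1.52 and Zwint is the only filled point on the right, at 0.63.

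Of the 11 members of the inner kinetochore, Cenpa and Cenpl fell and 9 did not pass. Cenpa encodes the histone H3 variant that marks the centromere. Its level was 57.1, 66.6 and 59.1 CPM in the controls and 32.1 and 27.5 CPM in the mutants (log2 fold change -1.03 ± 0.15; edgeR adjusted p = 0.000745). Both mutants lay well below the lowest control. Cenpl, a CCAN subunit that partners CENP-N on the CENP-A nucleosome, was at 28.5, 31.8 and 29.0 CPM in the controls and 18.2 and 21.1 CPM in the mutants (log2 fold change -0.60 ± 0.17; edgeR adjusted p = 0.0395). The fall of Cenpl did not pass when control 1, control 2, mutant 4 or mutant 6 was left out (adjusted p = 0.0966, 0.078, 0.263 and 0.101), and its other transcript row, with a log2 fold change of -0.41, was not called.

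The other CCAN members had log2 fold changes between -0.74 (Cenpk) and 0.30 (Cenpo and Cenpt). Cenpc1, the protein that links the CENP-A nucleosome to the outer kinetochore, was at 31.6, 32.4 and 29.5 CPM in the controls and 28.2 and 20.9 CPM in the mutants (-0.35 ± 0.17; edgeR adjusted p = 0.23). Cenph and Cenpk, which stand in 1 subcomplex of the CCAN, gave -0.45 ± 0.24 and -0.74 ± 0.35, and Cenpp and Cenpq, of the CENP-O group, gave -0.61 ± 0.25 and -0.60 ± 0.25. In these 5 genes both mutants lay below all controls, as in 21.8% of all genes, although none passed the test. Cenpn was at 13.5 to 14.7 CPM in the controls and 8.40 and 14.4 CPM in the mutants (-0.31 ± 0.24), which overlap. Cenpm, which stands with Cenph and Cenpk, had the smallest fold change of all members, with 5.29, 5.74 and 4.37 CPM in the controls and 4.78 and 4.94 CPM in the mutants (-0.08 ± 0.30), and the groups overlapped.

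Of the 11 inner kinetochore genes, 2 were higher in both mutants than in every control, without passing the test. The same held for 21.7% of all genes tested. Cenpo was at 28.7, 31.1 and 26.5 CPM in the controls and 38.7 and 32.3 CPM in the mutants (0.30 ± 0.16; edgeR adjusted p = 0.254). The GENCODE M21 annotation places 24.3% of its exonic bases over exons of Adcy3 on the other strand, and the sources used here do not say whether counting used strand, so reads of Cenpo and Adcy3 cannot be told apart there. Cenpt, which carries the CCAN's own arm to the Ndc80 complex, was at 10.2, 11.7 and 10.6 CPM in the controls and 14.2 and 12.5 CPM in the mutants (0.30 ± 0.21; adjusted p = 0.399). Cenpp shares 27.5% of its exonic bases with Ippk in the same way.

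In the KMN network 4 of 10 members fell, Zwint rose and 5 did not pass. The largest fall of all members was that of Dsn1, a scaffold subunit of the Mis12 complex, which was at 11.6, 12.0 and 9.72 CPM in the controls and 3.80 and 3.94 CPM in the mutants (-1.52 ± 0.27; edgeR adjusted p = 0.00259). Its mutant counts were 43 and 51, against 138 to 211 in the controls, and the groups were far apart. The other subunits of the same complex had smaller fold changes. Pmf1 was at 33.7 to 46.4 CPM in the controls and 24.9 and 29.2 CPM in the mutants (-0.61 ± 0.18; adjusted p = 0.0423), a call lost without control 1, control 2, mutant 4 or mutant 6 (adjusted p = 0.172, 0.0837, 0.273 and 0.103). Mis12 was at 15.7, 13.8 and 11.1 CPM in the controls and 12.4 and 10.7 CPM in the mutants (-0.23 ± 0.22), which overlap, and Nsl1 gave -0.36 ± 0.25, with overlap too. Dsn1 stood at 0.738 to 0.873 counts per count of Mis12 in the controls and at 0.307 and 0.367 in the mutants. This difference between subunits was not tested. Mis12 shares 7.7% of its exonic bases with Derl2 on the other strand, in the same way as Cenpo with Adcy3.

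All 4 genes of the microtubule-binding Ndc80 complex were lower in both mutants than in every control, as were 21.8% of all genes tested. Of the 4, only Spc25 passed the test. Spc25, part of the globular end that docks on the Mis12 complex, was at 32.3, 46.0 and 36.1 CPM in the controls and 19.2 and 24.2 CPM in the mutants (-0.81 ± 0.19; edgeR adjusted p = 0.0158), and its fall was lost without mutant 4 (adjusted p = 0.171). Its partner Spc24 was at 28.2, 27.2 and 20.1 CPM in the controls and 13.9 and 19.3 CPM in the mutants (-0.60 ± 0.21; adjusted p = 0.0911), a narrow gap. Ndc80 and Nuf2, the subunits that contact the microtubule, gave -0.66 ± 0.22 (adjusted p = 0.0682) and -0.60 ± 0.20 (adjusted p = 0.0745). Without control 3 the falls of Nuf2 and Spc24 passed (adjusted p = 0.0214 and 0.0318).

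Of the Knl1 complex, 1 gene fell and 1 rose. Casc5 (now named Knl1), the large scaffold that recruits BUB1 and BUBR1, was at 80.2, 90.5 and 75.2 CPM in the controls and 44.6 and 41.8 CPM in the mutants (-0.92 ± 0.14; edgeR adjusted p = 0.000994). Zwint, its binding partner, which helps to bring the Rod-Zw10-Zwilch complex to kinetochores, was at 17.5, 19.2 and 20.8 CPM in the controls and 31.5 and 27.8 CPM in the mutants (0.63 ± 0.17; adjusted p = 0.0321). Its groups did not overlap, and the raw counts were higher in the mutants (356 and 360), whose libraries were smaller, than in the controls (295 to 325). The rise was lost without control 1, mutant 4 or mutant 6 (adjusted p = 0.13, 0.236 and 0.0904) and on the deposited FPKM (adjusted p = 0.163 to 0.296). There were 0.213 to 0.276 counts of Zwint per count of Casc5 in the controls against 0.706 and 0.664 in mutants 4 and 6.

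**Figure D2:**
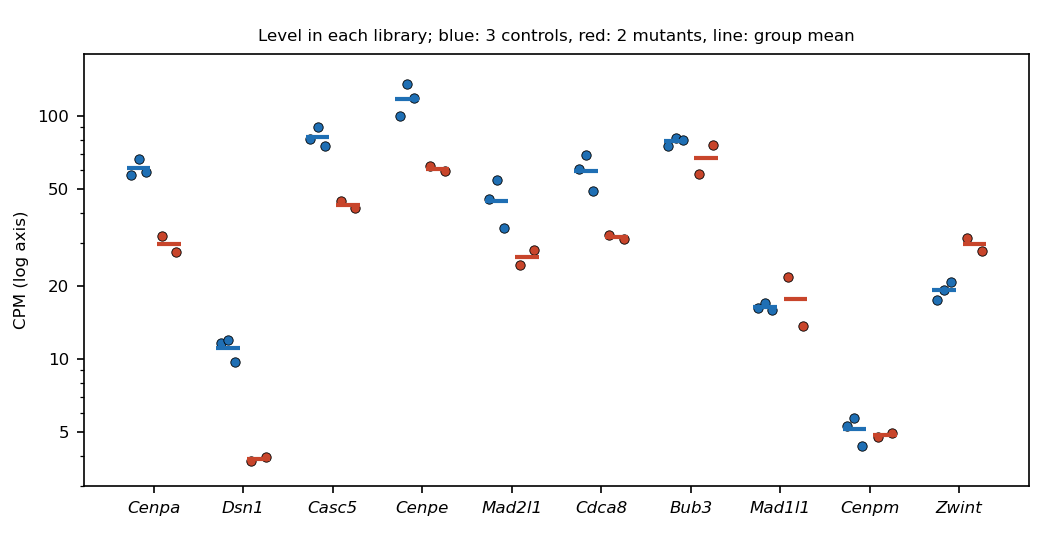
Level of 10 members in each library in CPM (log axis); blue points are the 3 controls, red points the 2 mutants and lines the group means. The groups are apart in Cenpa, Dsn1, Casc5, Cenpe, Mad2l1, Cdca8 and, in the other direction, Zwint (mutants 27.8 and 31.5, controls 17.5 to 20.8). In Bub3, Mad1l1 and Cenpm they overlap.

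All 3 corona and motor genes fell. Kif2c, which encodes the microtubule-depolymerising kinesin MCAK that corrects faulty attachments, was at 18.2, 21.0 and 17.2 CPM in the controls and 7.08 and 9.72 CPM in the mutants (-1.16 ± 0.22; edgeR adjusted p = 0.00511). Cenpe, the motor that carries chromosomes to the spindle equator, was at 100.1, 135 and 119 CPM in the controls and 62.0 and 59.6 CPM in the mutants (-0.96 ± 0.15; adjusted p = 0.0012). Cenpf, a large coiled-coil protein of the outer corona, was at 95.8, 102 and 88.1 CPM in the controls and 57.4 and 56.9 CPM in the mutants (-0.74 ± 0.13; adjusted p = 0.00324). Both mutants lay below every control in each gene. Without mutant 4, Kif2c and Cenpf missed the threshold (adjusted p = 0.073 and 0.0506).

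Of the 6 checkpoint genes, 3 fell. Mad2l1, which encodes MAD2, the protein that sequesters CDC20, was at 45.5, 54.7 and 34.5 CPM in the controls and 24.4 and 28.2 CPM in the mutants (-0.77 ± 0.19; edgeR adjusted p = 0.0215). The kinase gene Bub1 was at 33.2 to 39.9 CPM in the controls and 20.4 and 24.0 CPM in the mutants (-0.73 ± 0.17; adjusted p = 0.013), and Bub1b, which encodes BUBR1 of the mitotic checkpoint complex, was at 46.9 to 60.0 CPM and at 29.6 and 39.0 CPM (-0.68 ± 0.17; adjusted p = 0.0213). In each gene both mutants lay below every control. Mad2l1 did not pass when control 1, control 2, mutant 4 or mutant 6 was left out (adjusted p = 0.0778, 0.0579, 0.177 and 0.0682). Bub1 did not pass without control 1, mutant 4 or mutant 6 (0.0682, 0.0524 and 0.139), and Bub1b without control 1 or mutant 6 (0.099 and 0.221).

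The other 3 checkpoint genes did not pass. Ttk, which encodes the upstream checkpoint kinase MPS1, was at 26.6, 24.6 and 19.5 CPM in the controls and 18.9 and 11.5 CPM in the mutants (-0.64 ± 0.23; edgeR adjusted p = 0.0992, and 0.048 without control 3). Bub3, a WD40 protein that carries BUB1 and BUBR1 to the kinetochore, was at 75.3, 81.4 and 80.0 CPM in the controls and 57.9 and 76.1 CPM in the mutants (-0.23 ± 0.15). Its groups overlapped. Mad1l1, which encodes MAD1, the anchor of MAD2 at unattached kinetochores, was at 16.2, 17 and 15.9 CPM in the controls and 21.7 and 13.7 CPM in the mutants (0.11 ± 0.22). The mutants spanned the control values of Mad1l1, and its log2 fold change was -0.26 without mutant 4.

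All 4 genes of the chromosomal passenger complex fell, as did Sgol1. Cdca8, which encodes borealin, was at 60.3, 69.4 and 49.1 CPM in the controls and 32.3 and 31.3 CPM in the mutants (-0.91 ± 0.17; edgeR adjusted p = 0.00377). Birc5 (survivin), which with borealin places the complex at the centromere, was at 75.8 to 92.8 CPM in the controls and 39.5 and 53.8 CPM in the mutants (-0.82 ± 0.16; adjusted p = 0.00606). The scaffold Incenp was at 64.3 to 66.3 CPM in the controls, the narrowest of the group, and 38.3 and 42.3 CPM in the mutants (-0.69 ± 0.14; adjusted p = 0.00606). The kinase gene Aurkb was at 53.4 to 59.8 CPM in the controls and 34.1 and 36.4 CPM in the mutants (-0.68 ± 0.14; adjusted p = 0.0083). Sgol1, which encodes shugoshin, the protector of centromeric cohesin, was at 28.8, 34.1 and 31.5 CPM in the controls and 18.8 and 22.3 CPM in the mutants (-0.61 ± 0.17; adjusted p = 0.0369). The groups did not overlap in any of the 5 genes. Without mutant 4 the falls of Birc5, Incenp and Aurkb were lost (adjusted p = 0.122, 0.102 and 0.109), that of Aurkb also without mutant 6 (0.0575). The fall of Sgol1 was lost with any 1 of the 5 libraries left out (controls 1, 2 and 3: 0.0698, 0.0772 and 0.0511; mutants 4 and 6: 0.26 and 0.0841).

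Per transcript length, on the deposited FPKM, the members with the highest control levels were Pmf1 (40.7 ± 7.24 FPKM; SD, n = 3), Cenpa (40.5 ± 6.19), Cdca8 (35.4 ± 8.18), Bub3 (34.0 ± 3.24) and Aurkb (27.0 ± 2.11). The lowest were Nsl1 (3.32 ± 0.460), Cenpm (3.59 ± 0.601), Cenpk (3.67 ± 0.926) and Dsn1 (4.20 ± 0.503). Neighbours in these orders overlapped over the 3 libraries, except Bub3 and Aurkb, whose control values did not. In the mutants Bub3 was the highest member, at 30.4 ± 5.36 FPKM (SD, n = 2), and Cenpa was at 17.7 ± 0.996 FPKM. Dsn1 was at 1.21 ± 0.547 and Cenpk at 1.42 ± 0.608 FPKM, the lowest means, which differed by less than their spread.

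Set against Mki67 in the same library, the members were not lower as a sum. Summed, the members had 137, 137 and 155 counts per 100 counts of Mki67 in the controls. Mutants 4 and 6 had 163 and 168, 1.16 times the control mean. An exact permutation test over the 5 libraries gave a two-sided p = 0.2. That is the smallest p this test can give with 3 and 2 libraries, so it could not decide. In 20 members the ratio to Mki67 overlapped between the groups, in 12 it was higher in both mutants and in 3 (Dsn1, Kif2c and Cdca8) lower. Over all genes tested, whose median did not fall with Mki67, this ratio was higher in both mutants in 79.1% and lower in 0.926%. Dsn1 had 1.17 to 1.26 counts per 100 of Mki67 in the controls, against 0.745 and 0.777 in the mutants. The other gaps were narrower. Kif2c had 1.97 to 2.22 in the controls, against 1.39 in mutant 4 and 1.92 in mutant 6. Cdca8 had 6.35 to 6.79 in the controls, against 6.32 and 6.19 in mutants 4 and 6, close to the lowest control. Zwint had 1.88 to 2.69 in the controls, against 5.49 and 6.17 in the mutants. Cenpo and Cenpt had 2.19 and 2.17 times their control ratio. Against 10 genes of S phase summed (Pcna, Mcm2 to Mcm7, Rrm1, Rrm2 and Tyms), the summed members went from 165, 167 and 190.1 to 142 and 142 counts per 100, and 20 members were lower in both mutants, 11 overlapped and 4 (Cenpm, Cenpo, Cenpt and Zwint) were higher. Of all genes, 4.94% were lower and 40.4% higher by this measure. The S-phase sum itself was lower in the mutants, at 585 and 598 CPM, against 629 to 839 CPM in the controls. Of its 10 genes, 3 were called lower (Mcm4, Mcm6 and Tyms), where 4.17% of all genes were. It also held 1 gene that rose, Mcm2 (log2 fold change 0.52; edgeR adjusted p = 0.0307). Without it, an alternative chosen after the data were seen, the summed members were at 185, 182 and 215 counts per 100 in the controls and 169.9 and 177 in mutants 4 and 6, and 11 members were lower, 19 overlapped and 5 were higher (3.02% and 50.6% of all genes lower and higher).

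**Figure D3:**
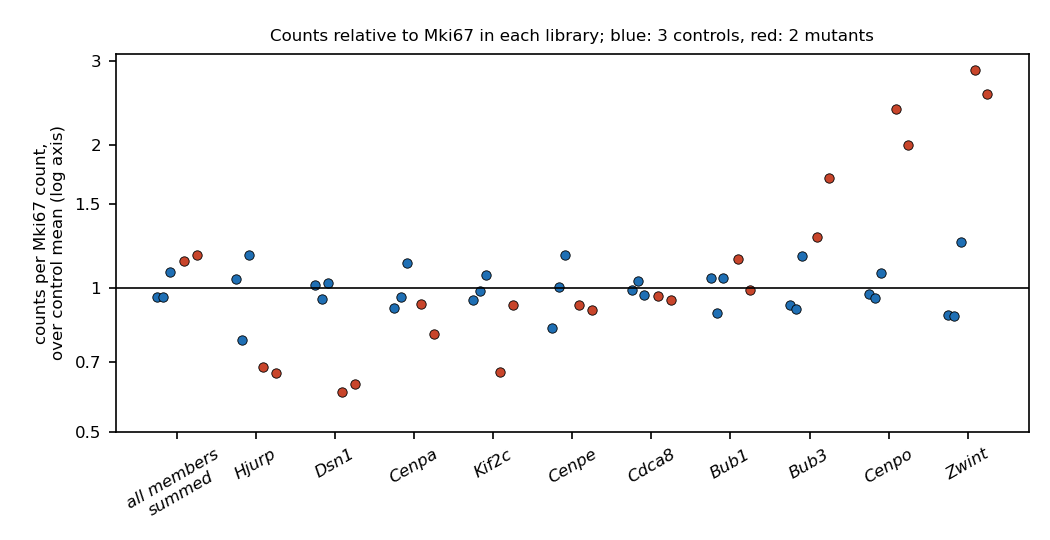
Counts of the summed members and of 10 genes per count of Mki67 in each library, divided by the control mean (log axis); blue points are the 3 controls and red points the 2 mutants. Hjurp, Dsn1, Cenpa, Kif2c, Cenpe and Cdca8 lie below the line at 1 in both mutants. Of these, Cenpa and Cenpe overlap the controls, as does Bub1, and Zwint lies highest.

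Of 28 other genes of the kinetochore and its regulation, 9 fell and 19 did not pass, where 4.17% of all genes were called lower. The median log2 fold change of the 28 was -0.58. The largest fall was that of Hjurp, the chaperone that deposits CENP-A. It was at 273, 224 and 256 CPM in the controls and 98.3 and 94.4 CPM in the mutants (-1.38 ± 0.14; edgeR adjusted p = 3.68e-05), and it was also lower relative to Mki67 (21.9 to 33.1 counts per 100 in the controls, 18.7 and 19.2 in the mutants). Mis18a, which also takes part in CENP-A loading and is listed in the table as 2610039C10Rik, fell by 0.99 ± 0.24 log2 units (adjusted p = 0.0169; lost without control 2, mutant 4 or mutant 6, at 0.0555, 0.0867 and 0.107). Oip5, which encodes MIS18B, gave -0.99 ± 0.31 (adjusted p = 0.0605). Nek2, a centrosome and kinetochore kinase, fell by 1.16 ± 0.15, the X-linked CCAN gene Cenpi by 1.10 ± 0.21 and the mitotic kinase Plk1 by 0.94 ± 0.19 (adjusted p = 0.000244, 0.00478 and 0.00728), the last lost without mutant 6 (adjusted p = 0.0669). Of the 28 genes, 5 were called lower when control 1 was left out and 6 without control 2, where 1.75% and 4.17% of all genes were called lower.

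The checkpoint acts on the anaphase-promoting complex (APC/C), whose activity releases cohesin. Of 29 genes of the APC/C and of cohesin, 4 fell (4.17% of all genes were called lower) and 25 did not pass, with a median of -0.19. The APC/C activator Cdc20, the direct target of the checkpoint, was at 37.1, 40.7 and 36.8 CPM in the controls and 18.2 and 21.8 CPM in the mutants (-0.93 ± 0.16; edgeR adjusted p = 0.00279). The ubiquitin-conjugating enzyme Ube2c was at 168 to 177 CPM in the controls and 84.5 and 96.4 CPM in the mutants (-0.93 ± 0.13; adjusted p = 0.000554). Cdca5 (sororin), which stabilises cohesin on chromatids, fell by 0.95 ± 0.20 and the cohesin cleavage subunit Rad21 by 0.56 ± 0.13. The 12 core APC/C subunits had log2 fold changes between -0.29 and 0.31. With edgeR and with DESeq2 0 of these 12 passed, and 0 had an unadjusted p under 0.05 with either tool. Of the 4 falls, that of Ube2c passed without any 1 library. Those of Cdc20, Cdca5 and Rad21 were lost without mutant 4 (adjusted p = 0.0553, 0.055 and 0.174), and those of Cdca5 and Rad21 also without mutant 6 (0.0708 and 0.0845).

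**Figure D4:**
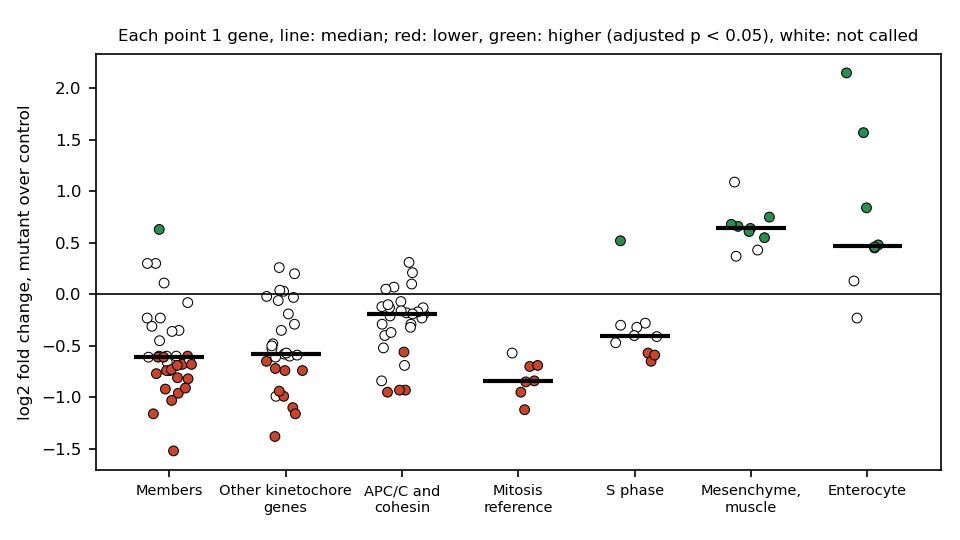
Log2 fold change (y axis, mutant over control) of each gene in 7 lists, with the list median as a line; red and green points passed the edgeR test downwards and upwards. The medians are -0.61 for the members, -0.58 for other kinetochore genes, -0.19 for APC/C and cohesin, -0.84 for the mitosis reference, -0.41 for S phase, 0.64 for mesenchyme and muscle and 0.47 for enterocyte markers. The mitosis reference holds Mki67, on whose protein the areas were chosen, Top2a, Ccna2, Ccnb1, Ccnb2, Cdk1 and Kif11. Of these 7 genes, 6 were called lower, where 4.17% of all genes were.

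Several markers of differentiated enterocytes and of mesenchyme rose in the same libraries. Of 8 markers of differentiated enterocytes 5 rose, where 6.11% of all genes were called higher. All 8 summed to 12029.9 to 16305 CPM in the controls and 17669 and 18170.3 CPM in the mutants. Apoa1 alone was at 2686 to 3874 CPM in the controls and 5793 and 5345 CPM in mutants 4 and 6. Fabp1, Lct and Anpep overlapped between the groups and did not pass. Of 9 mesenchyme and smooth muscle markers 6 rose (1067 to 1144 CPM summed in the controls, 1631 and 1751 CPM in the mutants). Of 5 immune markers 1, the macrophage receptor gene Csf1r, rose, from 41.4 to 70.1 CPM in the controls to 175 and 159.9 CPM in mutants 4 and 6. All 5 summed to 72.4 to 103 CPM in the controls and 200.3 and 220.0 CPM in the mutants, and the 4 without Csf1r to 31.0 to 36.3 CPM and 40.4 and 45.4 CPM. The 5 endothelial markers summed to 125 to 155 CPM and to 157 and 175 CPM, and none passed with edgeR or DESeq2 (1 had an unadjusted p under 0.05). The 5 neuron and glia markers summed to 2.25 to 4.22 CPM in the controls and 4.63 and 5.22 CPM in the mutants, and neither of the 2 that could be tested passed with either tool or had an unadjusted p under 0.05. The 4 erythroid markers summed to 29.2 to 35.0 CPM and 36.0 and 36.3 CPM, although 1 of these 4, Alas2, fell. No marker of these lists was at 0 in all libraries. The part of these cells in the falls of the kinetochore genes was not tested.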

How the data were processed

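RNA was measured in 3 control and 2 mutant libraries, made from laser-captured cells with the Ovation RNA-Seq V2 kit and read as single reads, per the labels' protocols. The authors deposited raw counts per RefSeq transcript (28644 rows) and, in a second table, FPKM values normalized to length and depth; mm9 and edgeR are named in the submitters' processing notes, and no source used here gives the aligner or the counting program. No column of per-sample values was left unmatched; 41 symbols turned into dates were restored by transcript.

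Counts were tested in edgeR 4.0.16 (R 4.3.3) by its quasi-likelihood F-test, after filterByExpr and TMM and with no covariate, with Benjamini-Hochberg adjustment over the 19353 rows tested and 3 residual degrees of freedom. Calls were counted on 1 row per gene (14572 genes). Each SE was derived from the log2 fold change and its F statistic. Alternatives used DESeq2 1.42.0, limma 3.58.1 on the deposited FPKM, other normalizations and filters, and each library left out. With 1 mutant left, that library was assumed to vary like the controls. The edgeR script was tested on simulated data.

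Every member is given with its change. Within each role group, the largest called change, the smallest change and any rise have values in every library; of the other kinetochore and APC/C lists the 5 largest called changes (or all, if fewer) are named. Oip5 and Zwint's promoter were added after their values were seen. Members and lists were chosen with earlier results of these data known. Exon overlaps came from GENCODE M21 and promoters from RefSeq, both on GRCm38, and no mm9 coordinate is given.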

Additional observations from a re-analysis of the deposited data

How the results depend on the processing

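On the deposited FPKM with limma (pseudocount 1, pseudocount 0.1, and pseudocount 1 with a mean of at least 1), 0, 1 and 8 members were called lower (0.0638%, 0.177% and 1.05% of all genes) and 0, 0 and 0 higher, 1, 2 and 3 other kinetochore genes lower, and, with the first 2 settings, 1 and 2 APC/C and cohesin genes lower; the cause was not tested. At an unadjusted p under 0.05 the members numbered 18, 21 and 21 lower and 1 higher in each. The member median was -0.74 with pseudocount 0.1. With each library left out in turn, the members called lower numbered 6 to 19, those higher 0 to 1, other kinetochore genes lower 3 to 11 and APC/C and cohesin genes lower 1 to 5, and the member median lay between -0.73 and -0.54. The log2 fold changes of Cenpm (-0.18 to 0.02; 0.02 without control 2), Cenpn (-0.75 to 0.02; 0.02 without mutant 4) and Mad1l1 (-0.26 to 0.40; -0.26 without mutant 4) changed sign, and none of these 3 genes was called. RLE normalization, the stricter filter, DESeq2 and 1 row per gene in the fit each kept all 17 falls. Upper-quartile normalization kept 15 (3.45% of all genes called lower), and with no filter on low counts 21 members fell (4.59%). No paired analysis was possible because the replicate numbers 1, 2 and 3 of the controls are not shared by the mutants, numbered 4 and 6. Members with few reads, such as Cenpk with 28 to 92 counts per library, had an SE of up to 0.35. The members' level relative to the S-phase sum was 0.816 of the control level and, without Mcm2, 0.894.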

Other observations

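Several members have more than 1 transcript row under 1 symbol. The 2 other rows of Spc25 and the other row each of Bub1 and Birc5 were called lower as well, with log2 fold changes of -0.80 to -0.79 (Spc25), -0.73 (Bub1) and -0.80 (Birc5). The other rows of Ttk (-0.69), Cenpk (-0.80), Cenpl (-0.41) and Cenpm (-0.07 and -0.06) were not called. A run matching TTTNNCGC on either strand, letters shared by many E2F sites, stood in 4 of the 31 member promoters (12.9%), against 5.27% of all promoters, namely in Cenpl, Cenpm, Dsn1 and Bub3. In these 4 promoters it shared no base with the other motifs searched.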
